A study of Homo sapiens with 8 samples.

Results

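The transcripts of 10 cytoplasmic cap-binding factors, the subunits and close regulators of the eIF4F complex, were followed in 8 RNA-seq libraries. They were chosen by name, though with earlier results of these data known. They comprise EIF4E, EIF4E2 and EIF4E3, the binding proteins EIF4EBP1 and EIF4EBP2, the scaffolds EIF4G1 and EIF4G3, the helicases EIF4A1 and EIF4A2, and the helicase cofactor EIF4B. All 10 were among the 19305 transcripts listed in each library, and all 10 passed the filter on low counts that kept 14565 genes for testing. The study depleted eIF2A, a factor that can carry initiator tRNA to the ribosome, in a pair of established human cell lines. HEK293T, a line from embryonic kidney, received sodium arsenite, an oxidative stressor, together with control siRNA or eIF2A siRNA. All 4 HEK293T libraries were from arsenite-treated cells, and the labels give no dose or time. H9 human embryonic stem cells expressed control shRNA or eIF2A shRNA, and their labels name no arsenite. Each of the 4 groups held 2 libraries. Whether these were separate cultures is not stated in the labels. The p-values below therefore measure the spread between these libraries, which may be technical.

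Most cytoplasmic mRNAs begin translation when eIF4F assembles on the cap at their front end. eIF4E grips the cap, eIF4G is the scaffold that joins it to the small ribosomal subunit and to the poly(A)-binding protein, and eIF4A, helped by eIF4B, unwinds structure in the leader of the mRNA. The eIF4E-binding proteins occupy the site on eIF4E that eIF4G uses, and the kinase mTOR releases them by phosphorylation. Transcript levels, measured here, do not report phosphorylation or assembly.

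Knockdown and cell identity were checked first. EIF2A stood at 17.5 and 18.3 CPM (counts relative to library size after TMM, the trimmed mean of M values) in HEK293T control libraries against 5.58 and 5.98 with siRNA. The H9 libraries held 15.8 and 14.8 CPM with control shRNA against 5.03 and 4.67 with eIF2A shRNA. Gene counts ranged from 21837052 to 32318668 per library. The stem cell marker LIN28A stood at 2707 to 2977 CPM in H9 and at no more than 0.16 in HEK293T, and POU5F1 at 114 to 195 and no more than 0.24. Of 8 stem cell markers 7 were analysed, and together, mostly LIN28A and DNMT3B, they summed to 5536 and 5550 CPM in the H9 controls and to 5199 and 5294 with shRNA. One by one they did not move alike with shRNA: 3 were called higher, L1TD1 (a log2 fold change of 1.01), SOX2 (0.47) and DPPA4 (0.11), 3 were called lower, LIN28A (-0.11), DNMT3B (-0.15) and POU5F1 (-0.48), and NANOG was not called. The 8 genes listed as markers of differentiated or feeder cells summed to 878 and 882 CPM in the H9 controls. With shRNA they summed to 711 and 718, and between 1 and 4 of them were at 0 in each H9 library. Most of the sum was THY1, at a mean of 791 CPM in the H9 controls, where GATA6, CDX2 and DCN were at 0. The sum is therefore not read as a share of such cells. THY1 was lower with shRNA (-0.42), whereas COL1A1, at 88.7 and 87.7 CPM in the H9 controls against 118 and 124 with shRNA, was higher (0.45). In HEK293T the same 8 summed to 143 to 151 CPM. The 4 genes listed as embryonic kidney markers summed to 102 to 108 CPM in HEK293T. In the H9 controls they summed to 10.4 and 11.7, and with shRNA to 18.6 and 21.1. The HEK293T sum is mostly NEFL, at a mean of 97.1 CPM in the controls, where PAX2 stood at 5.67 and LHX1 at 3.64. CDH6 went the other way, at 3.40 and 3.31 CPM in the H9 controls against 0.04 and 0.09 in those of HEK293T. The share of reads assigned to no counted feature was 18.8% and 18.4% in the H9 controls and 20.8% and 20.6% with shRNA. All of these H9 sums and shares thus differed between knockdown and control, and their part in the H9 results below was not tested. In bulk RNA, fewer cells of a type and less RNA per cell cannot be told apart.

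Per length of the listed transcript, the helicase EIF4A1 was the most abundant of the 9 factors with a known length, and EIF4E3 the least. EIF4A1 stood at 1475 and 1488 CPM per kilobase in the HEK293T controls and at 1210 and 1242 in the H9 controls. EIF4EBP1 followed at 324 and 334 in HEK293T and 287 and 299 in H9. EIF4G1 came next at 269 and 282 in HEK293T and 197 and 196 in H9. In both lines EIF4B was the fourth, at 162 and 177 CPM per kilobase in HEK293T and 131 and 129 in H9. The order of the middle 3 differed between the lines. In HEK293T it ran EIF4A2 (35.0 and 34.3), EIF4E2 (27.0 and 30.8) and EIF4EBP2 (24.9 and 25.8). In H9 it ran EIF4EBP2 (62.6 and 61.1), EIF4E2 (38.6 and 38.8) and EIF4A2 (37.3 and 36.7). The minor paralogs closed the order in both lines. EIF4G3 stood at 3.30 and 3.29 CPM per kilobase in HEK293T and 2.38 and 2.35 in H9, and EIF4E3 at 1.17 and 1.24 and at 1.57 and 1.54. No neighbours in either order overlapped between the control libraries, though 2 libraries give little measure of spread. EIF4E, the canonical cap binder, is left out of this order because the transcript listed for it had no length in the reference used. It stood at 15.2 and 15.7 CPM in HEK293T control libraries, against 27.3 and 26.5 in those of H9.

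**Figure D1:**
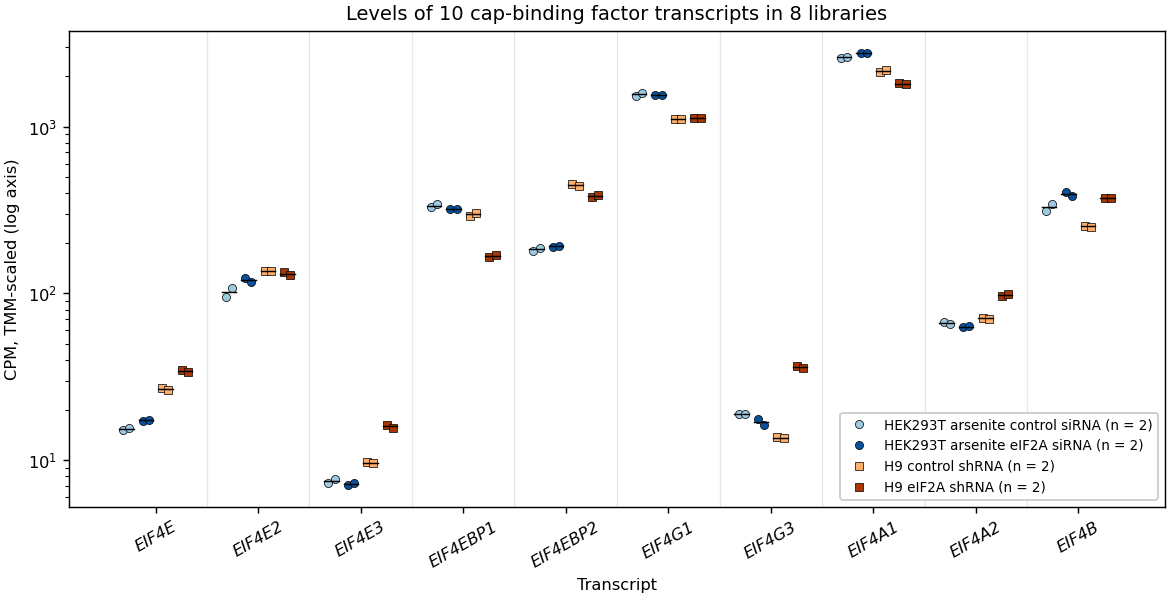
Level of each of the 10 transcripts in each library, as TMM-scaled CPM on a log axis that is not divided by length. Points are libraries, lines are group means of 2 libraries, circles are arsenite-treated HEK293T and squares are H9. EIF4G3 in H9 sits near 13.6 in the controls and near 36.2 CPM with eIF2A shRNA, and EIF4EBP1 near 299 and 167.

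Between the control libraries of the lines, 5 of the 10 factors were higher in H9 and 5 lower, where 83.5% of all tested genes were called at an adjusted p under 0.05 (42.3% higher and 41.2% lower). Line, arsenite and the kind of RNA interference, siRNA or shRNA, cannot be told apart in this comparison. The 3 cap-binding paralogs were all higher in H9, EIF4E by a log2 fold change of 0.79 ± 0.072 (SE), EIF4E2 by 0.41 ± 0.046 and EIF4E3 by 0.36 ± 0.11. EIF4EBP2 was higher by 1.29 ± 0.033, while EIF4EBP1 was lower in H9 by a log2 fold change of -0.17 ± 0.033. Both scaffolds were lower in H9, EIF4G1 at -0.49 ± 0.029 and EIF4G3 at -0.48 ± 0.080. EIF4A1 (-0.27 ± 0.028) and EIF4B (-0.38 ± 0.037) were lower too, whereas EIF4A2 was higher by 0.10 ± 0.045 with an adjusted p of 0.0471. EIF4A2 turned to -0.06 with upper-quartile scaling, under which the median of all genes was -0.16, and 5 of the 8 fits that left out 1 library did not call it (log2 fold changes of 0.08 to 0.11). EIF4E3 was not called with upper-quartile scaling (0.21, adjusted p = 0.0752), which also set EIF4E2 at 0.26, EIF4EBP1 at -0.33 and EIF4A1 at -0.43. With the trend of GC content and length described below removed from each library, the median of all genes was -0.20, and all 10 directions held. EIF4G1 then had a log2 difference of -1.28 and EIF4EBP2 one of 1.09, with EIF4EBP1 at -0.65, EIF4G3 at -0.67 and EIF4A2 at 0.34.

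The promoters of these genes are shown as a description of their sequence, and any link to the knockdown changes below was not tested. A window of 250 bases before the RefSeq start site, on GRCh38.p14, was at hand for 9 of the 10 genes, all but EIF4EBP1. Each lies at the outermost start of its gene. The 35116 windows set beside them below hold all listed starts of 27305 gene symbols, so the shares are of unlike sets. The E-box CACGTG, which reads the same on both strands, was in 3 of these 9 windows, against 2228 of 35116 windows of the same length (6.34%). Those are EIF4E and EIF4G1, with a pair of copies each, and EIF4B, with a single copy. The windows are printed 5′ to 3′ on the gene's strand, which is the minus strand for EIF4E and the plus strand for the others, with CACGTG in capitals.
EIF4E, chr4:98929134-98929383: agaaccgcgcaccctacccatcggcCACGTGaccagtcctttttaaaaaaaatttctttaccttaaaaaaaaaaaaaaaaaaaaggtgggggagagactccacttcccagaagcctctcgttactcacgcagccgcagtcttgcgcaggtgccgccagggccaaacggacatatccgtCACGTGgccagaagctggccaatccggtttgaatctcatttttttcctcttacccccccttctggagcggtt
EIF4G1, chr3:184314356-184314605: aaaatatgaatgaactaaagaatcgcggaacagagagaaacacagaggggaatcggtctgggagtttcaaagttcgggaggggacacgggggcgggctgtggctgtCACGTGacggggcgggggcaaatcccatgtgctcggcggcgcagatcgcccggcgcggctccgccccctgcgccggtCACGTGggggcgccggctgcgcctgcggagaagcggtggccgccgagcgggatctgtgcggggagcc
EIF4B, chr12:53006206-53006455: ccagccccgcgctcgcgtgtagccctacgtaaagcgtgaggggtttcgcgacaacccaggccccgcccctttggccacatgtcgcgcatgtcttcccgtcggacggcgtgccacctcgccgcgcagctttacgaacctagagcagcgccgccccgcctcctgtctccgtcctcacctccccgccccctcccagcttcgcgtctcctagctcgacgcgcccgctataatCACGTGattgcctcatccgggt
The copies began 225 and 72 bases before the start in EIF4E, 144 and 67 bases before it in EIF4G1, and 22 bases before it in EIF4B. In the H9 knockdown EIF4B and EIF4E rose as measured and EIF4G1 was not called. EIF4E was not called with the trend of GC content and length removed (-0.01, at the median of its reference transcripts). The letters TATAA, searched on both strands, were in 3 of the 9 windows and in 6646 of all 35116 (18.9%). They lay in both helicase paralogs, 29 bases before the start of EIF4A1 and 30 bases before that of EIF4A2, and 28 bases before the start of EIF4B, beside its E-box and not overlapping it. The last 60 bases before the start of the helicase paralogs, both on the plus strand, are printed with TATAA in capitals.
EIF4A1, chr17:7572765-7572824: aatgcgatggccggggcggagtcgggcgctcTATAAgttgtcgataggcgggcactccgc
EIF4A2, chr3:186783517-186783576: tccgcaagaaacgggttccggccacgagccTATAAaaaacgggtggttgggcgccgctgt
The helicase paralogs share this feature at nearly the same distance, and their transcripts changed in opposite directions in H9, though both were called lower with the trend of GC content and length removed (EIF4A1 at -0.23 and EIF4A2 at -0.13). A match to these letters is a description of the window and not of factor binding.

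In HEK293T under arsenite, eIF2A depletion was accompanied by small changes, and in H9 most of the factors changed. In HEK293T 3 of the 10 were called higher, EIF4E2, EIF4A1 and EIF4B, and 0 lower, where 28.7% of all tested genes were called (14.1% higher and 14.7% lower). By edgeR at an unadjusted p under 0.05, 2 were lower, EIF4EBP1 and EIF4G3, and DESeq2 and limma-voom each called 0 lower. In H9 5 of the 10 were called higher and 3 lower, where 71.3% of all tested genes were called (37% higher and 34.3% lower). As measured, the counts of called factors are near these backgrounds in both lines. The median log2 fold change of the 10 was 0.02 in HEK293T, where it was -0.003 over all genes, and 0.18 in H9, where it was 0.02 over all genes. The genes higher in H9 were EIF4E, EIF4E3, EIF4G3, EIF4A2 and EIF4B, and those lower were EIF4EBP1, EIF4EBP2 and EIF4A1. The H9 tally changed with the trend of GC content and length described below removed. Of the 10, 2 were then higher and 6 lower, where 21.1% of all genes were higher and 29% lower. Their median was then -0.18, where that of all genes was -0.03. In HEK293T 3 were then higher and 1 lower, where 15.1% of all genes were higher and 12.8% lower.

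**Figure D2:**
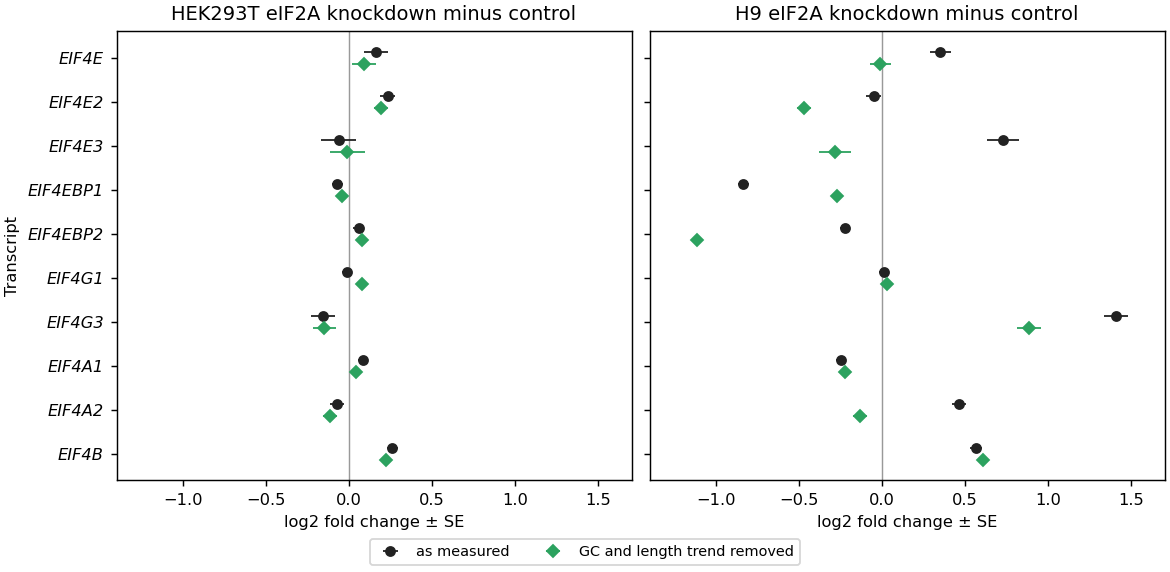
Log2 fold change of each transcript, eIF2A knockdown minus control, ± SE from edgeR, in HEK293T (left) and H9 (right). Circles are the change as measured and diamonds the change after the trend with GC content and length was removed, which in H9 takes EIF4E3 from 0.73 to -0.28 and leaves EIF4B near 0.60.

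Among the cap-binding paralogs, EIF4E and EIF4E3 rose in H9 and EIF4E2 rose in HEK293T. EIF4E stood at 27.3 and 26.5 CPM in H9 control libraries against 34.8 and 33.7 with shRNA, both above both controls. Its log2 fold change was 0.35 ± 0.064 (adjusted p = 8.76e-06). In HEK293T EIF4E went from 15.2 and 15.7 CPM to 17.2 and 17.5, a log2 fold change of 0.16 ± 0.073 that was not called (adjusted p = 0.0995). The H9 change of EIF4E was 0.19 with DESeq2, which did not call it (adjusted p = 0.0589). EIF4E2, also called 4EHP, binds the cap but does not recruit eIF4G in the usual way and is known as a repressor of translation with GIGYF2 and ZNF598. In HEK293T it stood at 95.3 and 108 CPM with control siRNA against 123 and 117 with eIF2A siRNA. These groups did not overlap, and the log2 fold change was 0.23 ± 0.045 (adjusted p = 0.000137), or 0.15 without the control replicate 1. In H9 EIF4E2 stood at 136 and 137 CPM with control shRNA against 134 and 129 with eIF2A shRNA, and it was not called (-0.05 ± 0.045, adjusted p = 0.311). With DESeq2's size factors it was called lower in H9, at -0.21, and with upper-quartile scaling its change was 0.02. EIF4E3, an atypical cap binder, had the fewest counts of the 10 factors in HEK293T. It stood at 9.74 and 9.58 CPM in H9 control libraries against 16.4 and 15.6 with shRNA, so that the groups lay far apart, with a log2 fold change of 0.73 ± 0.095 (adjusted p = 2.12e-08). In HEK293T it stood at 7.27 and 7.70 CPM with control siRNA against 7.10 and 7.29 with eIF2A siRNA, where the groups overlapped.

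Both eIF4E-binding proteins fell in H9. EIF4EBP1, which encodes the best-studied of these inhibitors, stood at 292 and 305 CPM in H9 control libraries against 165 and 170 with shRNA. Its log2 fold change of -0.84 ± 0.035 (adjusted p = 1.16e-20) left only 2.51% of tested genes with a lower value. In HEK293T EIF4EBP1 stood at 330 and 341 CPM with control siRNA against 319 and 320 with eIF2A siRNA. The knockdown libraries lay just below the controls, and the log2 fold change of -0.07 ± 0.032 was not called (adjusted p = 0.0996), though it was with upper-quartile scaling (adjusted p = 0.0474) and without the control replicate 1 (adjusted p = 0.0195). EIF4EBP2 encodes a second inhibitor of the same kind. It stood at 454 and 443 CPM in H9 control libraries against 380 and 388 with shRNA, a log2 fold change of -0.22 ± 0.032 (adjusted p = 1.16e-07), which DESeq2's size factors set at -0.38. In HEK293T EIF4EBP2 stood at 181 and 187 CPM with control siRNA against 190 and 193 with eIF2A siRNA (0.06 ± 0.034, adjusted p = 0.213).

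Of the scaffolds, EIF4G3 rose in H9 and EIF4G1 was not called. EIF4G1, the major scaffold, stood at 1114 and 1112 CPM in H9 control libraries against 1120 and 1125 with shRNA. It was not called (0.01 ± 0.029, adjusted p = 0.718), but this depended on the scaling: it was called at -0.15 with DESeq2's size factors, under which the median of all genes was -0.13, and at 0.08 with upper-quartile scaling, under which that median was 0.09. In HEK293T it stood at 1523 and 1597 CPM with control siRNA against 1543 and 1553 with eIF2A siRNA, where the groups overlapped. EIF4G3, a paralog of EIF4G1 also called eIF4GII, stood at 13.7 and 13.5 CPM in H9 control libraries against 36.7 and 35.7 with shRNA. The groups lay far apart, at 2.66-fold (log2 fold change 1.41 ± 0.073, adjusted p = 4.16e-18), and 6.51% of tested genes had a higher value. In HEK293T EIF4G3 stood at 18.99 and 18.95 CPM with control siRNA against 17.6 and 16.4 with eIF2A siRNA. The knockdown libraries were the lower ones, but the change of -0.16 ± 0.072 was not called (adjusted p = 0.101).

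EIF4B rose in both lines, while in H9 EIF4A2 rose and EIF4A1 fell. EIF4A1, the main helicase, stood at 2125 and 2182 CPM in H9 control libraries against 1813 and 1807 with shRNA, a log2 fold change of -0.25 ± 0.028 (adjusted p = 6.88e-10), which DESeq2's size factors set at -0.41. In HEK293T it stood at 2590 and 2613 CPM with control siRNA against 2765 and 2746 with eIF2A siRNA. That rise of 0.08 ± 0.028 (adjusted p = 0.0214) was lost in 8 of 18 alternative fits, among them those without the siRNA replicate 1 (adjusted p = 0.139) or the siRNA replicate 2 (adjusted p = 0.0791). EIF4A2, a close paralog of EIF4A1, stood at 71.6 and 70.5 CPM in H9 control libraries against 96.9 and 98.8 with shRNA, where it was higher in both libraries by 0.46 ± 0.044 (adjusted p = 1.81e-11), which DESeq2's size factors set at 0.30. In HEK293T EIF4A2 stood at 67.2 and 65.7 CPM with control siRNA against 62.8 and 63.6 with eIF2A siRNA (-0.07 ± 0.044, adjusted p = 0.242). EIF4B, which stimulates the helicase, stood at 254 and 250 CPM in H9 control libraries against 373 and 375 with shRNA, a log2 fold change of 0.57 ± 0.037 (adjusted p = 1.94e-15). In HEK293T EIF4B stood at 314 and 343 CPM with control siRNA against 404 and 383 with eIF2A siRNA, with no overlap and a log2 fold change of 0.26 ± 0.036 (adjusted p = 6.07e-07). EIF4A1, EIF4B, EIF4E and EIF4EBP1 have pseudogenes or close copies, and reads aligned to several places were set aside, so their levels are less certain.

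A ratio of paralogs within a library does not depend on how libraries are scaled. Per kilobase, EIF4A2 was 2.37% and 2.30% of EIF4A1 in the HEK293T controls and 3.08% and 2.96% in the H9 controls. EIF4G3 was 1.23% and 1.17% of EIF4G1 in the HEK293T controls and 1.21% and 1.20% in the H9 controls, so these ranges overlapped between the lines. EIF4EBP2 was 7.69% and 7.71% of EIF4EBP1 in the HEK293T controls and 21.8% and 20.4% in the H9 controls. The binding proteins were thus the pair whose balance differed most between the control libraries of the lines. EIF4E3 was 4.34% and 4.03% of EIF4E2 in HEK293T and 4.07% and 3.98% in H9, a ratio added after the data were seen.

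With eIF2A depletion in H9 the minor scaffold and the minor helicase made up more of their pairs. EIF4G3 reached 3.22% and 3.12% of EIF4G1 per kilobase with shRNA, 2.63-fold the control ratio (log2 change 1.396). EIF4A2 reached 4.89% and 5.002% of EIF4A1, a log2 change of 0.71. In HEK293T both ratios were lower with siRNA, EIF4G3 at 1.12% and 1.04% of EIF4G1 (log2 change -0.15) and EIF4A2 at 2.08% and 2.12% of EIF4A1 (-0.16). EIF4EBP2 was at 32.3% and 32.2% of EIF4EBP1 in H9 (log2 change 0.61) and at 8.37% and 8.49% in HEK293T (0.13). EIF4E3 reached 6.92% and 6.88% of EIF4E2 in H9 (0.78) and 3.28% and 3.53% in HEK293T (-0.30). Ratios to EIF4E are of counts, so only their change is compared. EIF4E3 over EIF4E changed by a log2 value of 0.38 in H9 and -0.22 in HEK293T. EIF4E2 over EIF4E changed by -0.40 in H9 and by 0.08 in HEK293T, where the groups overlapped. The binding proteins summed over EIF4E gave counts of 27.4 and 28.3 for each EIF4E count in the H9 controls and 15.7 and 16.5 with shRNA, a log2 change of -0.79. In HEK293T that sum went from 33.5 and 33.7 to 29.6 and 29.4 (-0.19). In all of these ratios but EIF4E2 over EIF4E in HEK293T (p = 0.667), knockdown and control libraries did not overlap, and the exact two-sided permutation p was 0.333, the smallest that 2 against 2 libraries allow.

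**Figure D3:**
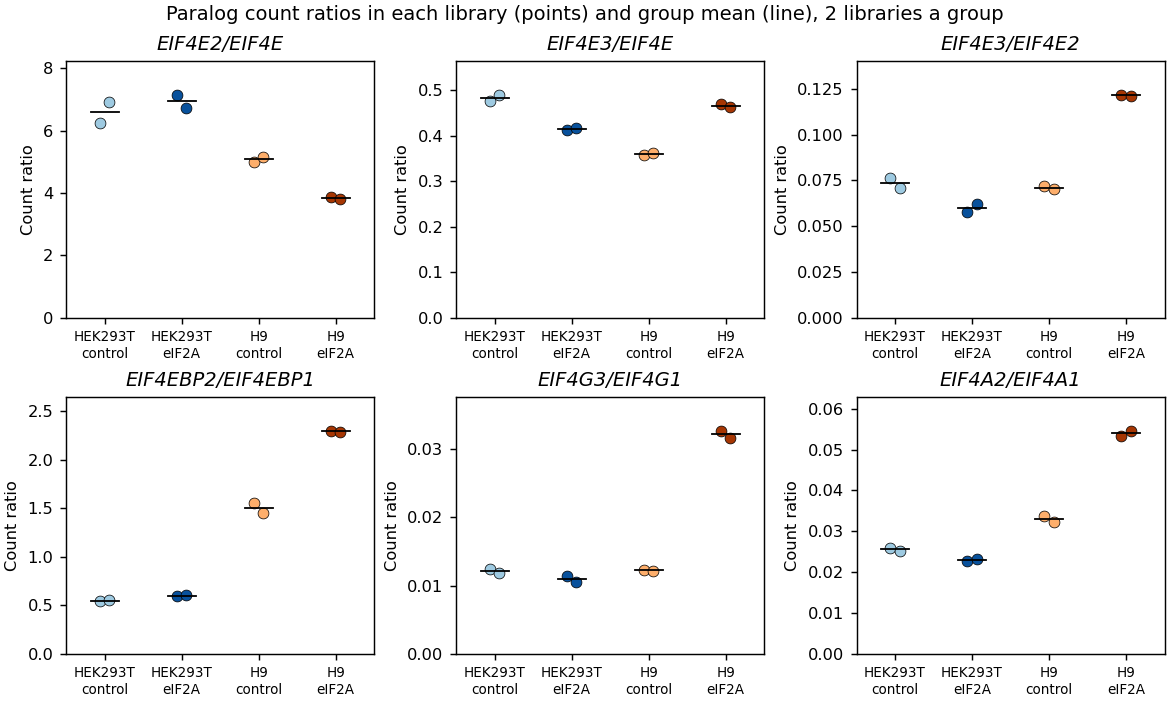
Ratio of counts of each paralog pair in each library (points, not divided by length) and the group mean (lines), with every axis starting at 0. The shRNA libraries of H9 stand above their controls for EIF4G3/EIF4G1, EIF4A2/EIF4A1, EIF4EBP2/EIF4EBP1, EIF4E3/EIF4E and EIF4E3/EIF4E2, and below them for EIF4E2/EIF4E.

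Across all genes the H9 changes went with the makeup of the transcripts. Over 14400 genes with a known length and GC content, Spearman's rho of the H9 log2 fold change was -0.676 with GC content and 0.453 with length, given as a description across genes that share libraries. In HEK293T the values were -0.0998 and -0.0961. The median H9 change was 0.99 for transcripts of up to 40% GC and -0.40 for those over 60%. EIF4E3 (39.0% GC) and EIF4A2 (40.6%) lie at the low end, and EIF4EBP1 (65.5%) at the high end. With this trend removed from each library, EIF4G3 (0.88 ± 0.074) and EIF4B (0.60 ± 0.033) stayed higher in H9, and EIF4EBP1 (-0.27 ± 0.033), EIF4EBP2 (-1.11 ± 0.031) and EIF4A1 (-0.23 ± 0.028) stayed lower. EIF4E2 was called lower at -0.47 ± 0.043. EIF4E3 turned to -0.28 ± 0.096 (adjusted p = 0.0136) and EIF4A2 to -0.13 ± 0.044 (adjusted p = 0.0111). EIF4E was no longer called (-0.01 ± 0.063, adjusted p = 0.916) with the median length and GC content of its 3 reference transcripts. Taking those in turn, an alternative added after the data were seen, gave EIF4E 0.03, 0.17 and -0.78 for transcripts of 898, 1097 and 11523 nt. Which of them the counted reads came from was not tested. The ratio of EIF4EBP2 to EIF4EBP1 in H9 turned from 0.61 to -0.84 with the trend removed. That of EIF4E3 to EIF4E went from 0.38 to -0.27 with EIF4E at the median of its reference transcripts. With the transcript of 11523 nt EIF4E was at -0.78, below the -0.28 of EIF4E3, so the direction of this ratio depends on the transcript taken. The ratio of EIF4G3 to EIF4G1 stayed higher at 0.85, and those of EIF4A2 to EIF4A1 (0.09) and EIF4E3 to EIF4E2 (0.18) shrank. No value with the trend removed is given here for EIF4E2, or for the summed binding proteins, over EIF4E. Those H9 changes of -0.40 and -0.79 rest on EIF4E, whose own change depended on the reference transcript taken. In HEK293T, EIF4E2 (0.19 ± 0.042) and EIF4B (0.22 ± 0.032) stayed higher with the trend removed. EIF4E was called there with the transcript of 11523 nt (0.26, adjusted p = 0.00599), and not with those of 898 nt (0.08) or 1097 nt (0.09). EIF4A1 was no longer called (0.04, adjusted p = 0.310), while EIF4G1 was called higher (0.08, adjusted p = 0.0456) and EIF4A2 lower (-0.11, adjusted p = 0.0474).

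**Figure D4:**
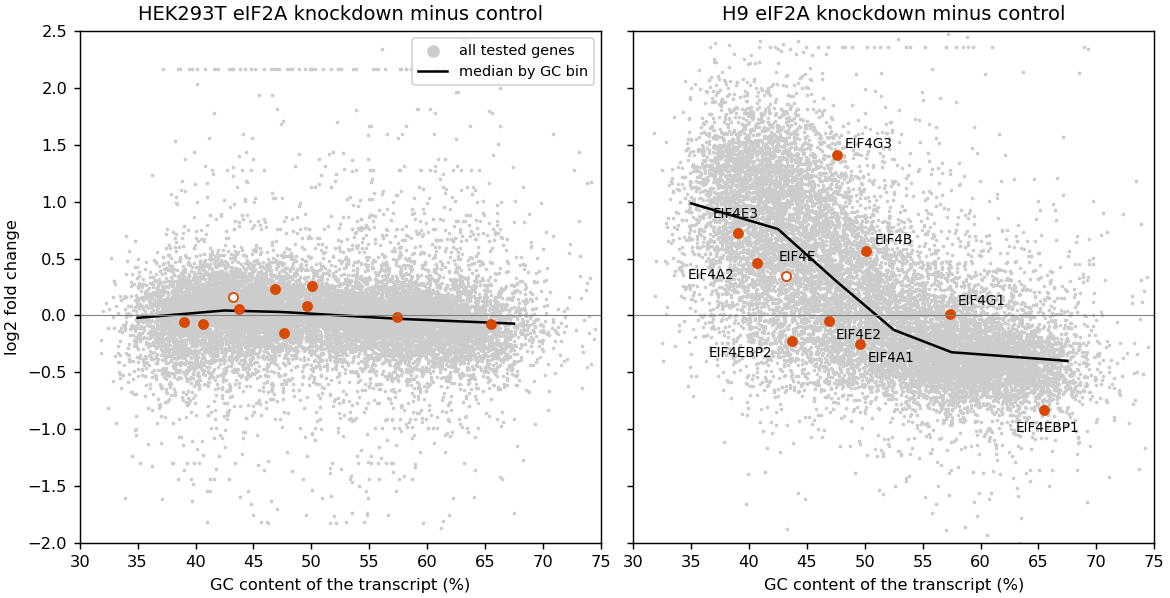
Log2 fold change against GC content of the transcript (%), knockdown minus control, for all tested genes (grey) and the 10 factors (orange), in HEK293T (left) and H9 (right); the line joins the medians of GC bins and the open circle is EIF4E at the median of its reference transcripts. In H9 the line falls from 0.99 to -0.40, with EIF4G3, EIF4B and EIF4G1 above it and the other 7 factors below it.

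The knockdown change itself was tested for a difference between the lines, H9 minus HEK293T, a contrast in which cell line, arsenite and the kind of RNA interference go together. Of the 10 factors 4 were higher and 4 lower, where 58.1% of all tested genes were called (31.1% higher and 27% lower). The H9 change was higher for EIF4G3 by 1.57 ± 0.10, EIF4E3 by 0.79 ± 0.14, EIF4A2 by 0.53 ± 0.062 and EIF4B by 0.31 ± 0.051. It was lower for EIF4EBP1 (-0.76 ± 0.047), EIF4A1 (-0.33 ± 0.039), EIF4E2 (-0.28 ± 0.064) and EIF4EBP2 (-0.28 ± 0.046). EIF4E (0.19 ± 0.097, adjusted p = 0.0963) and EIF4G1 (0.02 ± 0.041, adjusted p = 0.652) were not called. EIF4E was called with upper-quartile scaling (0.27, adjusted p = 0.0172) and with a filter of 5 CPM in 2 libraries (0.24, adjusted p = 0.0293). EIF4G1 was called at 0.11 with upper-quartile scaling (adjusted p = 0.0239) and at -0.13 with DESeq2's size factors (adjusted p = 0.00898). With the trend removed, 42.8% of all genes were called, and the calls for EIF4E3 and EIF4A2 were lost. The other 6 kept direction and call, EIF4G3 at 1.03, EIF4B at 0.38, EIF4EBP1 at -0.23, EIF4A1 at -0.27, EIF4E2 at -0.66 and EIF4EBP2 at -1.19.

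Other genes of cap-dependent initiation were read from a list of 32, which holds partners of eIF4F, other cap binders, kinases and their regulators, and initiation helicases. In HEK293T 7 of the 32 were higher and 9 lower, against 14.1% and 14.7% of all genes, with a median of -0.04. In H9 18 were higher and 13 lower, against 37% and 34.3% of all genes, with a median of 0.13. With the trend removed 9 were higher and 8 lower in H9, where 21.1% of all genes were then higher and 29% lower. Of 10 relatives and partners of eIF4F, 8 were higher and 2 lower in H9, again against 37% and 34.3% of all genes, but 3 were higher and 1 lower with the trend removed. They include EIF4G2, a scaffold relative that lacks the eIF4E site, at 0.94 ± 0.031 (0.20 with the trend removed), and PABPC1, the poly(A)-binding protein, at 0.69 ± 0.037 (0.62 with the trend removed). EIF4H, a helicase cofactor like EIF4B, was at -0.08 ± 0.031 in H9 (adjusted p = 0.0221), a call that was lost in each of the 4 fits without 1 H9 library, and it was at 0.03 with the trend removed. In HEK293T EIF4H was higher at 0.22 ± 0.030 and EIF4G2 at 0.16 ± 0.031, while PABPC1 was not called (-0.05 ± 0.037).

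Among the other cap binders, NCBP1, which with NCBP2 forms the nuclear cap-binding complex, was higher in H9 at 0.91 ± 0.062, which fell to 0.02 and out of the call with the trend removed. In HEK293T NCBP1 was higher at 0.21 ± 0.068 (adjusted p = 0.0194), a call lost in 4 of 18 alternative fits. NCBP3, another nuclear cap binder, was higher in HEK293T at 0.24 ± 0.062. In H9 NCBP3 was higher at 0.80 ± 0.065. That call was lost in 2 of 18 alternative fits, those with the trend removed, with a lowest value of 0.09. Of 11 kinases and their regulators, 3 were higher and 8 lower in H9, where 71.3% of all genes were called (37% higher and 34.3% lower). With the trend removed 3 were higher and 4 lower. MLST8, a subunit of the mTOR complexes, was at -0.59 ± 0.035 and AKT1S1, an mTOR complex inhibitor, at -0.46 ± 0.039, and RPS6KB2, a kinase of the ribosomal protein S6, was at -0.37 ± 0.041. With the trend removed MLST8 was at -0.15 and AKT1S1 at -0.17, still called, and RPS6KB2 at 0.09, no longer called. In HEK293T TSC2, an upstream inhibitor of mTOR, was lower at -0.55 ± 0.032, RPS6KB2 at -0.40 ± 0.038 and MLST8 at -0.16 ± 0.033. In H9 TSC2 was lower at -0.09 ± 0.035, a call lost in 7 of 18 alternative fits. MKNK2, a kinase of eIF4E, was higher in HEK293T at 0.13 ± 0.037, which was not called without the siRNA replicate 2 (0.11, adjusted p = 0.0956). In H9 MKNK2 was lower at -0.14 ± 0.035, which was not called with upper-quartile scaling (-0.07, adjusted p = 0.0765) or with the trend removed (0.07, adjusted p = 0.0629). ZNF598, a partner of EIF4E2, was lower in both lines, at -0.29 ± 0.034 in HEK293T and -0.48 ± 0.042 in H9 (-0.23 with the trend removed). CYFIP1, an eIF4E-binding repressor, was also lower in both, at -0.23 ± 0.040 in HEK293T and -0.27 ± 0.041 in H9. Both CYFIP1 calls held in all 18 alternative fits. The helicase DDX3X was higher in H9 at 1.29 ± 0.046, or 0.34 with the trend removed, and lower in HEK293T at -0.20 ± 0.049 (adjusted p = 0.00184).

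The genes whose profile over the 8 libraries lay nearest to that of a factor were found by the root mean square difference of centred log2 CPM, among 12947 genes of at least 1 CPM. For EIF4E they were CTNNA1 (0.038) and CALM2 (0.046), where the median gene stood at 0.63. For EIF4EBP1 they were DBNDD1 (0.062) and PCBD1 (0.064), with a median of 0.67. EIF4G1 lay nearest to PRPF8 (0.031) and ACIN1 (0.032), with a median of 0.52, and EIF4A1 to ZNF384 (0.027) and NPLOC4 (0.034), with a median of 0.55. These are descriptions of 8 libraries in 4 groups.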

How the data were processed

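Polyadenylated RNA was sequenced in 8 libraries, 2 in each of 4 groups, from TRIzol extracts with a stranded mRNA kit, per the labels' protocols. Per the submitters' processing notes, the tools were cutadapt and STAR 2.5.2b and the build was hg19. Each deposited file holds whole-number counts, one for each RefSeq accession, and is not normalized. How reads were counted, on which strand and with which annotation is not given in the sources used here. Reads marked ambiguous (0.76 to 0.94%) were given to no gene, which may lower the counts of overlapping genes. Reads aligned to more than 1 place (4.11 to 4.54%) or assigned to no feature (14.95 to 20.84%) entered neither library sizes nor tests. A RefSeq table named 18888 accessions and GENCODE 225 more. Transcript length and GC content are from GENCODE, and whether counts cover only the listed transcript is not given. For EIF4E no listed transcript matched.

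The test was that of edgeR 4.0.16 (R 4.3.3), with filterByExpr, TMM scaling, 4 group means over all 8 libraries (4 residual degrees of freedom), and the robust two-sided quasi-likelihood F test. Benjamini-Hochberg adjustment ran over the 14565 genes tested, and calls were made at an adjusted p under 0.05. The SE comes from the F statistic. On simulated counts over 14565 genes, the HEK293T comparison recovered 79 of 100 genes changed by 0.5 log2 and 89 of 100 changed by 1. The H9 comparison recovered 62 and 82. Unchanged genes called were 8 in HEK293T and 12 in H9. The simulation gave all groups 1 mean per gene, changed 200 genes and held no GC trend. In H9 71.3% of all genes were called and went with GC content, so these rates need not hold for the data. Precision is limited by 2 libraries a group and 21837052 to 32318668 gene counts a library. Replicates differed by more than sampling noise (chi-square per degree of freedom 1.35 to 4.91, highest in the HEK293T controls).

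All 10 factors are named, with EIF2A, the 4 list genes of smallest p in each direction and line, EIF4G2, EIF4H and PABPC1, 2 nearest profiles for 4 factors, and cell markers. Members, lists and tests were chosen with earlier results of these data known. One stem cell marker is not analysed here. Alternatives were DESeq2 1.42.0 and its size factors, upper-quartile scaling, other filters, limma-voom (limma 3.58.1), the libraries of 1 line, the set number as a block, a GC and length correction by offsets, and each library left out. The labels do not say what a set is. Promoter windows came from RefSeq on GRCh38.p14, a build other than that of the counts, and no coordinates of the counted transcripts are given.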

Additional observations from a re-analysis of the deposited data

Results flagged for a closer look

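The knockdown change differed between the lines, by edgeR's test of the difference itself, for 8 of the 10 factors and for 11 of the 13 list genes named, with adjusted p-values of 0.00297 or less, where 58.1% of all tested genes were called. Of these, all but EIF4G2, EIF4H and PABPC1 were named only for a small p within a line, so their count is no result about the list. The difference, H9 change minus HEK293T change in log2 units, was 1.57 for EIF4G3, 0.79 for EIF4E3, 0.53 for EIF4A2 and 0.31 for EIF4B. It was -0.76 for EIF4EBP1, -0.33 for EIF4A1, -0.28 for EIF4E2 and -0.28 for EIF4EBP2. Among the list genes it was 1.49 for DDX3X, 0.78 for EIF4G2, 0.74 for PABPC1, 0.71 for NCBP1, 0.56 for NCBP3 and 0.45 for TSC2. It was -0.43 for MLST8, -0.40 for AKT1S1, -0.30 for EIF4H, -0.27 for MKNK2 and -0.19 for ZNF598. After removal of the GC and length trend, 12 of these 19 differences kept their direction and call, and 7 did not, namely EIF4E3, EIF4A2, EIF4G2, ZNF598, NCBP1, NCBP3 and MLST8. The sizes moved too: with the trend removed the difference was 1.03 for EIF4G3, 0.38 for EIF4B, -0.23 for EIF4EBP1, -0.27 for EIF4A1, -0.66 for EIF4E2 and -1.19 for EIF4EBP2. Among the list genes it was then 0.52 for DDX3X, 0.67 for PABPC1, 0.39 for TSC2, -0.16 for AKT1S1, -0.18 for EIF4H and -0.13 for MKNK2. NCBP3 was then called in the opposite direction (-0.22, adjusted p = 0.0471). ZNF598 was also lost with upper-quartile scaling (-0.11, adjusted p = 0.101). Cell line, arsenite and siRNA against shRNA cannot be told apart in this contrast.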

How the results depend on the processing

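The number of factors called ranged over all alternatives from 2 to 4 in HEK293T, 8 to 10 in H9, 6 to 10 for the difference between the lines and 8 to 10 between the controls. Of 183 alternative values for the 10 factors in H9, 166 kept direction and call, and in HEK293T 168 of 183 did. Many of these fits differ little, as those without a library of the other line keep all libraries of the contrast. The counts are therefore no measure of how firm the H9 results are. With the trend removed in H9, EIF4E lost its call, EIF4E3 and EIF4A2 turned to lower, and EIF4E2 was called lower. Removing the GC and length trend took the calls in the list of 32 in H9 from 31 to 17, or 19 with the replicate block, while over all genes the share called went from 71.3% to 50.1%, or 49.5% with the block. The cause was not tested.

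With the set number as a replicate block, 2 factors were called in HEK293T and 8 in H9, with 16 and 29 of the list genes, where 26.4% and 70.6% of all genes were called. EIF4A1 was then not called in HEK293T (adjusted p = 0.0837), nor EIF4H in H9 (adjusted p = 0.0578). Libraries with the same set number did not deviate together (correlation -0.015 in HEK293T and 0.0048 in H9), so the numbers are not treated as pairs.

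Directions turned as follows, with the value under the trend removed and then with the replicate block beside it. In HEK293T EIF4G1 was 0.076 and 0.077. In H9 EIF4E was -0.010 and -0.010, EIF4E3 -0.28 and -0.28, EIF4A2 -0.13 and -0.13, EIF4H 0.027 and 0.027, MKNK2 0.074 and 0.074, and RPS6KB2 0.086 and 0.086. For the difference between the lines EIF4E was -0.098 and -0.0997, EIF4E3 -0.27 and -0.27, EIF4G1 -0.047 and -0.048, EIF4A2 -0.018 and -0.017, NCBP1 -0.19 and -0.19, and NCBP3 -0.22 and -0.22. With the transcript of 11523 nt EIF4E was -0.78 in H9 and -1.04 for the difference, which was -0.053 with that of 898 nt. The H9 ratio change was -0.27 for EIF4E3/EIF4E, with EIF4E at the median of its reference transcripts, and -0.84 for EIF4EBP2/EIF4EBP1. The direction of the former depends on the transcript taken.

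With DESeq2's size factors and with DESeq2, EIF4G1 was -0.15 in H9 and -0.13 for the difference. With upper-quartile scaling EIF4E2 was 0.019 in H9 and EIF4A2 was -0.061 between the controls. Leaving out 1 library gave EIF4G1 -0.042 to 0.024 in HEK293T and -0.012 to 0.054 for the difference, and PABPC1 -0.12 to 0.030 in HEK293T. Each of these turned without the HEK293T control replicate 2, and PABPC1 was called without the control replicate 1 (adjusted p = 0.00156). EIF4H was the gene named that lost its H9 call in each fit without 1 H9 library (-0.090 to -0.068).

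Across all genes, DESeq2's size factors moved the H9 median change from 0.02 to -0.13, and calls for the difference from 4532 higher and 3935 lower to 3730 and 5051. DESeq2 called 1327 higher and 1424 lower in HEK293T, against 2048 and 2134 with edgeR, with 3671 adjusted p-values not given. After removal of the trend the difference had 2549 higher and 3614 lower, and DESeq2 gave 4008 and 5566 in H9 against 5389 and 4991. Between the controls the median of all genes moved from 0.003 to -0.16 with upper-quartile scaling and to -0.20 with the trend removed. EIF4E3, with as few as 167 counts in a library, had the widest SE of the 10 in HEK293T (0.11).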
